A study of Mus musculus with 22 samples.

Results

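Gr1-negative and Gr1-positive leukocytes taken from injured mouse muscle at day 2 after injury were compared gene by gene. The comparison used 6 of the 22 arrays of the series, 3 per sorted subset, chosen by their labels and paired by replicate number. It covered the 21789 of 35556 probe sets that name 1 gene, which stand for 19938 genes. All mice carry the strain label C57B6/J, and every group received a cardiotoxin injection into the Tibialis anterior, so no array shows uninjured muscle. CD45+ cells were enriched from the muscle with magnetic beads, stained for Gr1 and Cx3cr1, and sorted. The sorted groups are labelled day 2 Gr1-/Cx3cr1high and day 2 Gr1+/Cx3cr1low, and the protocol also describes them as Ly6C- with a high and Ly6C+ with a low level of the macrophage antigen that Adgre1 encodes. The animals' age and sex, and whether an array holds RNA of 1 mouse or of several, are not given in the sources used here. The arrays are labelled as biological replicates. The p-values measure the spread of the differences within replicate pairs, pooled over the compared days, whatever the source of the replicates. In the fit without pairs they measure the spread between the replicate arrays.

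Cardiotoxin destroys muscle fibres, which then regrow from stem cells while leukocytes enter the tissue. Ly6C-high monocytes arrive from the blood early, take up debris and release inflammatory mediators, and macrophages with little Ly6C that derive at least partly from them accompany the regrowth of fibres. The Gr1 antibody binds Ly6G, found on neutrophils, and Ly6C, found on inflammatory monocytes. Cx3cr1, the receptor for fractalkine, marks many monocytes and macrophages and also some dendritic cells, the leukocytes that carry antigen to lymph nodes.

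Levels are log2 signals of an Affymetrix array, and a difference is Gr1-negative minus Gr1-positive, ± SE, from a limma fit with the pair as a block and Benjamini-Hochberg adjustment over all 21789 probe sets. A probe set passed at an adjusted p under 0.05. Where a gene given with its adjusted p passed with the block but not without it, the adjusted p of the fit without pairs follows, marked unpaired. The median signal of an array lay between 7.02 and 7.18 in the 6 arrays of day 2. The spread was wider among Gr1-positive arrays (median SD 0.1487) than among Gr1-negative ones (0.0908), and the median SD of the 3 pair differences was 0.131. Both replicate 1 arrays stood apart from replicates 2 and 3 on the second principal component of all 22 arrays (18.1 against -19.9 and -14.9 in Gr1-positive, -13.9 against -28.7 and -29.3 in Gr1-negative cells). A list's count without a pair follows where it differs by more than 1.5-fold. Counts of list members stand against 9.17% of all probe sets called higher and 1.9% called lower. The lists were chosen with earlier results of these data known, so their counts and medians are no independent support.

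The macrophage and leukocyte identity genes, among them Mertk, a receptor for the uptake of dying cells, were bright in both subsets. The mean level of the 10 genes was 11.89 to 12.01 in the Gr1-positive and 11.92 to 12.01 in the Gr1-negative arrays. Of these genes 1 passed, Mertk (0.80 ± 0.12, adjusted p = 0.00117), and the other 9 did not pass.

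In all, 1998 probe sets (9.17% of those tested) were higher in the Gr1-negative cells and 414 (1.9%) were lower. They stand for 1928 and 404 genes. At least 2-fold differences were fewer, with 103 probe sets higher and 44 lower. The median difference was 0.45 among the higher and -0.49 among the lower probe sets, against -0.0265 over all 21789. In 2410 of the 2412 called probe sets all 3 pairs had the same sign, and in 1771 the 3 arrays of one subset did not overlap with the 3 of the other. Both counts describe probe sets selected by a paired test on these same arrays, which favours them, so they are no further support. Over all probe sets, 12.6% had non-overlapping groups with Gr1-negative above and 10.8% with Gr1-negative below. Without the pair block, 548 probe sets (2.52%) were higher and 132 (0.606%) lower, and all 680 were also called with the block. The higher count was 877, 1257 and 782 when pair 1, 2 or 3 was left out, and the lower count was 234, 356 and 146. Higher probe sets made up 82.8% of the calls, and 63.7% when the table was quantile-normalized again (1377 higher, 785 lower).

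**Figure D1:**
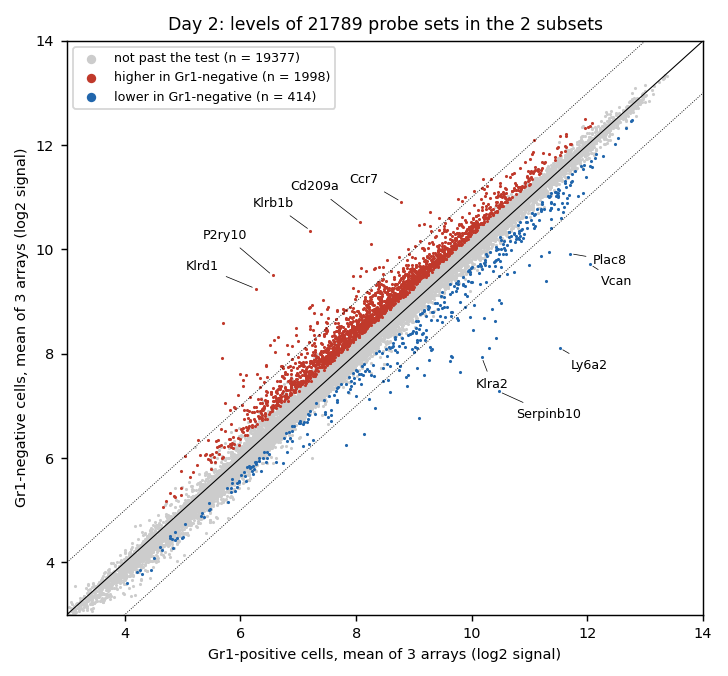
Mean log2 signal of each probe set in the 3 Gr1-negative arrays (vertical axis) against the 3 Gr1-positive arrays (horizontal axis) at day 2, coloured by the limma call; the solid line marks equal levels and the dotted lines 2-fold. Red points (1998) outnumber blue ones (414) but mostly lie within 2-fold, while the farthest points, such as Klrb1b above and Ly6a2 below, lie well outside.

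The 3 sort marker genes analysed, Ly6g, Cx3cr1 and Adgre1, differed by less than 1 log2 unit. Ly6g, the gene of the neutrophil antigen Ly6G, read 6.08, 5.92 and 6.30 in the Gr1-positive and 5.45, 5.50 and 5.71 in the Gr1-negative arrays of replicates 1, 2 and 3. The groups did not overlap, all 6 values lay below the array median, and Gr1-negative cells were lower (-0.55 ± 0.14, adjusted p = 0.0271, 0.112 unpaired), a call that was lost when any one pair was left out. Cx3cr1 read 8.48, 9.31 and 8.84 in the Gr1-positive and 8.96, 9.44 and 9.04 in the Gr1-negative arrays. Each Gr1-negative array exceeded its partner, the groups overlapped, and the difference did not pass (0.27 ± 0.10, adjusted p = 0.107). Adgre1, the gene of that macrophage antigen, stood near 12 in all 6 arrays and did not pass (0.21 ± 0.09, adjusted p = 0.182). Ly6c1 and Ly6c2 were not analysed here. RNA and surface protein are different measurements, and the arrays hold no surface values.

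Among the 12 largest differences in favour of Gr1-negative cells were those of 3 lectin-like receptor genes of the Klr family and of several genes known from dendritic cells, beside P2ry10 and the mast cell gene Cpa3. Klrb1b, a receptor known from natural killer cells, read 7.36, 7.11 and 7.15 in the Gr1-positive and 10.10, 10.45 and 10.53 in the Gr1-negative arrays. The groups lay more than 2 log2 units apart, and Gr1-negative cells exceeded the others 8.89-fold (3.15 ± 0.23, adjusted p = 5.06e-05). Cd209a, a C-type lectin of monocyte-derived and conventional dendritic cells, read 6.75, 8.82 and 8.62 in the Gr1-positive and 9.43, 11.06 and 11.09 in the Gr1-negative arrays. Replicate 1 was the lowest in both subsets, but every Gr1-negative array lay above every Gr1-positive one (2.46 ± 0.20, adjusted p = 7.54e-05, 5.52-fold). Ccr7, the receptor that directs migration to lymph nodes, read 9.07, 8.55 and 8.72 in the Gr1-positive and 10.89, 10.75 and 11.10 in the Gr1-negative arrays. These groups did not overlap either (2.13 ± 0.19, adjusted p = 0.000126, 4.39-fold). Flt3, the cytokine receptor on which dendritic cell development depends, read 6.94, 7.09 and 7.56 in the Gr1-positive and 8.52, 8.98 and 9.22 in the Gr1-negative arrays, again without overlap (1.71 ± 0.20, adjusted p = 0.000412). In the Gr1-positive arrays Ccr7 still lay above the array medians in all 3 replicates, and Cd209a in replicates 2 and 3.

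Of the 12 largest higher probe sets, the others were Klrd1, which pairs with other lectin receptors on natural killer cells (2.99 ± 0.31, adjusted p = 0.000212), P2ry10, a lysophospholipid receptor (2.95 ± 0.33, adjusted p = 0.000326), and Cpa3, the carboxypeptidase of mast cell granules (2.89 ± 0.50, adjusted p = 0.00317, 0.074 unpaired). Klri1, an inhibitory lectin receptor, Cd7, an immunoglobulin-family surface protein of lymphoid and some dendritic cells, and Kmo, an enzyme of tryptophan breakdown, were higher by 2.23, 1.84 and 1.69. H2-Ob, a chain of the class II peptide-loading regulator, was higher by 1.69 and Cmbl, a cytosolic hydrolase, by 1.69. All 12 had non-overlapping groups and passed with the block, and Cpa3 alone among them did not pass without it. Near-identical members of the Klr, Ly6 and Cd209 families can share probe signal, so the single member named is uncertain.

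**Figure D2:**
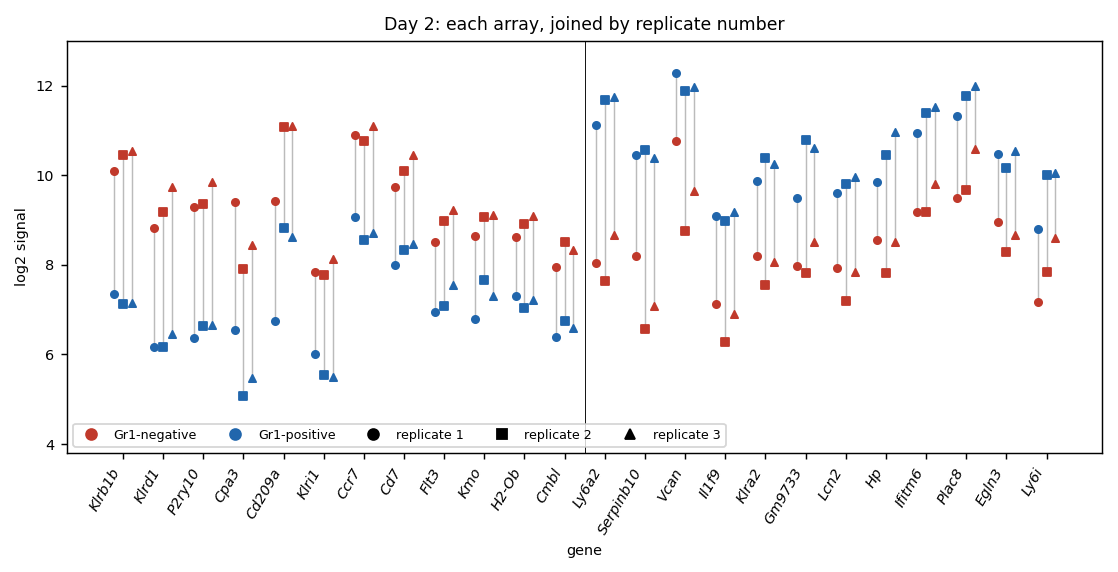
Log2 signal in each of the 6 arrays of day 2 for the 12 probe sets with the largest higher (left) and lower (right) differences; red symbols are Gr1-negative and blue Gr1-positive arrays, the shape gives the replicate number and grey lines join pairs. No gene shown has overlapping groups, from Klrb1b with 3.15 log2 units to Ly6i with -1.75.

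Markers of 3 dendritic cell states were higher in part. Among conventional dendritic cell genes 6 of 11 measured were higher and none lower, with a median difference of 1.25 (5 higher without the block), against 9.17% of all probe sets. They are Cd209a, Cd7, Flt3 and Kmo above, Cd209d, a relative of Cd209a (1.61, adjusted p = 0.00702, 0.0686 unpaired), and Dpp4, a surface peptidase, which is named to complete the 6. Among genes of mature migratory dendritic cells 5 of 11 were higher and 1 was lower, with a median of 0.47 (2 higher without the block, 3 without pair 2 and 3 without pair 3, and none lower in these 3 fits). Besides Ccr7 these include Ccl22, a chemokine that attracts T cells (1.39, adjusted p = 0.000411), Ccl17, which acts on the same receptor (1.25, adjusted p = 0.0173, 0.185 unpaired), and Fscn1, whose product bundles actin in migrating dendritic cells (1.09, adjusted p = 0.00139, 0.0604 unpaired). Among genes of cross-presenting dendritic cells 6 of 11 were higher (3 without the block). Clec9a, their receptor for dead cells, differed by 1.10 (adjusted p = 0.00614) and Xcr1, their chemokine receptor, by 0.78 (adjusted p = 0.00791). Cadm1 (0.91, adjusted p = 0.00149, 0.503 unpaired, with overlapping groups) and Tlr3 (0.78, adjusted p = 0.000946, 0.112 unpaired) were higher too. The mean levels of Clec9a (5.88 in Gr1-positive and 6.98 in Gr1-negative cells) lay below the array medians. Xcr1 read below 8 in all 6 arrays. None of the 8 plasmacytoid dendritic cell genes passed, and their widest difference was that of Spib, a transcription factor (0.41 ± 0.30, adjusted p = 0.448).

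In a bulk sample more cells of a type and more RNA per cell cannot be told apart, which holds for every marker list here. The mean level of the conventional dendritic cell list was 6.79 to 7.41 in the Gr1-positive and 7.94 to 8.42 in the Gr1-negative arrays. Of 10 genes of MHC class II presentation 4 were higher, against 9.17% of all probe sets, and none lower. The median was 0.24, and the same 4 were higher without the block. They are H2-Ob, its partner H2-Oa (1.52, adjusted p = 0.000126), H2-Eb2, a class II beta chain (1.18, adjusted p = 0.000963), and Ciita, the master activator of class II genes (0.67, adjusted p = 0.024).

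Other leukocyte markers moved unevenly. In the Klr list 5 of 14 genes were higher and 1 was lower (4 and 1 without the block, 3 higher without pair 1 and 3 without pair 3), and the median difference was 0.09. The lower one, Klra2, a Ly49-family receptor, read 9.86, 10.39 and 10.26 in the Gr1-positive and 8.20, 7.55 and 8.06 in the Gr1-negative arrays. It stood 4.7-fold lower in Gr1-negative cells without overlap (-2.23 ± 0.23, adjusted p = 0.000237). Of 14 T and NK cell genes 2 were higher, a count near the 9.17% of all probe sets. Both are cytotoxic granule genes, Nkg7 (0.87, adjusted p = 0.00122, 0.298 unpaired) and Gzmb, which encodes a protease (0.58, adjusted p = 0.0393, 0.572 unpaired). The mean levels of Gzmb (6.40 and 6.98 in Gr1-positive and Gr1-negative cells) lay below the array medians. The other 12 did not pass, and the count was 0 without the block and 1 without any one pair. Cd3g, a chain of the T cell receptor complex, read 5.88, 6.08 and 5.73 in the Gr1-positive and 6.08, 6.52 and 6.14 in the Gr1-negative arrays, below the array median in every array. The mean level of the T and NK list ranged from 6.60 to 6.76 in Gr1-positive and from 6.75 to 6.96 in Gr1-negative arrays. Its part in the differences of the Klr genes was not tested.

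Among 13 genes of mast cells, basophils and eosinophils 3 were higher and 2 lower (1 and 2 without the block). Cpa3 read 6.55, 5.07 and 5.48 in the Gr1-positive and 9.40, 7.92 and 8.44 in the Gr1-negative arrays, a spread of more than 1 log2 unit within each subset, with replicate 1 the highest of each. Mcpt4, a mast cell protease, differed by 1.33 (adjusted p = 0.0321, 0.279 unpaired) and Kit, the receptor for stem cell factor, by 1.01 (adjusted p = 0.00107). Hdc, the enzyme that makes histamine and is also known from myeloid cells, went the other way (-1.57 ± 0.23, adjusted p = 0.00122). None of the B cell (7 genes), fibroblast (14), muscle (17), endothelial (10) or red cell (4) markers passed (1 B cell gene was lower without pair 1), and their list medians lay between -0.15 and -0.06.

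Among the 12 largest differences in the other direction were those of Ly6C-high monocyte genes and of members of the Ly6 family. Vcan, the matrix proteoglycan versican that Ly6C-high monocytes express, read 12.28, 11.87 and 11.97 in the Gr1-positive and 10.75, 8.75 and 9.64 in the Gr1-negative arrays. Replicate 1 had the smallest gap, but the groups did not overlap and the mean was 5.01-fold lower in Gr1-negative cells (-2.33 ± 0.26, adjusted p = 0.000326). Ly6a2, a Ly6-family gene, read 11.13, 11.68 and 11.75 in the Gr1-positive and 8.04, 7.63 and 8.66 in the Gr1-negative arrays, 10.6-fold lower (-3.41 ± 0.37, adjusted p = 0.000296). Plac8, a small cysteine-rich protein of monocytes and granulocytes, read 11.33, 11.77 and 11.99 in the Gr1-positive and 9.50, 9.67 and 10.59 in the Gr1-negative arrays. All pairs pointed the same way and the groups did not overlap (-1.78 ± 0.13, adjusted p = 5.06e-05). Serpinb10, a serine protease inhibitor, read 10.46, 10.56 and 10.38 in the Gr1-positive and 8.19, 6.56 and 7.07 in the Gr1-negative arrays, and its replicate 1 gap was again the narrowest of the 3 (-3.19 ± 0.31, adjusted p = 0.000163).

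The remaining genes among the 12 largest lower probe sets were Il1f9, the cytokine interleukin 36 gamma (-2.31 ± 0.38, adjusted p = 0.00233), Lcn2, the iron-siderophore binder lipocalin 2 (-2.14 ± 0.33, adjusted p = 0.0016), and Hp, the haemoglobin scavenger haptoglobin (-2.12 ± 0.27, adjusted p = 0.000608). Ifitm6, an interferon-induced transmembrane gene, Ly6i, another Ly6 gene, and Gm9733, a predicted gene, differed by -1.90, -1.75 and -2.19. Klra2 and Egln3, a hypoxia gene, complete them. All 12 passed with and without the block.

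Of 16 measured genes of Ly6C-high monocytes 10 were lower, none higher and 6 did not pass, with a median difference of -0.54 (6 lower without the block), against 1.9% of all probe sets. All 16 had a negative difference. The list median was -0.32, -0.73 and -0.58 in pairs 1, 2 and 3. Vcan, Hp, Ifitm6 and Plac8 led the list. Its mean level remained high in both subsets, 11.56 to 11.78 in Gr1-positive and 10.65 to 10.93 in Gr1-negative arrays.

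Of 18 neutrophil genes 8 were lower, against 1.9% of all probe sets, and none higher. Their median was -0.46 (6 lower without the block and 5 without pair 3). S100a8, a subunit of the inflammatory protein calprotectin, read 8.82, 9.05 and 9.29 in the Gr1-positive and 7.93, 7.58 and 7.67 in the Gr1-negative arrays, without overlap (-1.33 ± 0.28, adjusted p = 0.00978). Its partner S100a9 differed by -1.37 (adjusted p = 0.00295) and Trem1, a receptor that amplifies inflammation, by -1.30 (adjusted p = 0.000317). Lcn2 is listed here too. Lcn2, the calprotectin genes and Trem1 are also expressed by monocytes. The mean level of the neutrophil list was 8.18 to 8.31 in Gr1-positive and 7.50 to 7.67 in Gr1-negative arrays, and its part in the monocyte differences was not tested.

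Of 22 hypoxia response genes 11 were lower in Gr1-negative cells, against 1.9% of all probe sets, none was higher and 11 did not pass. Such genes carry binding motifs for hypoxia-inducible factors, which are stabilized when oxygen is scarce and raise glucose uptake and glycolysis. Egln3, a prolyl hydroxylase that marks those factors for degradation, read 10.48, 10.15 and 10.55 in the Gr1-positive and 8.96, 8.28 and 8.66 in the Gr1-negative arrays. The groups did not overlap and Gr1-negative cells were 3.39-fold lower (-1.76 ± 0.21, adjusted p = 0.000404). Ankrd37, a known target of the factors, read 8.64, 8.72 and 9.32 in the Gr1-positive and 7.76, 7.38 and 7.66 in the Gr1-negative arrays (-1.29 ± 0.18, adjusted p = 0.000887). The median over the list was -0.32, and 4 of its differences were positive. The lower count was 4 without the block, 7 without pair 1 and 5 without pair 3. Ero1a, an oxidase of the endoplasmic reticulum, was lower in every pair (-0.75 ± 0.08, adjusted p = 0.000326). Ak4, a mitochondrial adenylate kinase, was also lower in every pair while the groups overlapped (-0.97 ± 0.13, adjusted p = 0.000824, 0.101 unpaired), and its second probe set did not pass (-0.27, adjusted p = 0.311).

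Glycolysis genes split. Of 16 measured 2 were higher and 3 lower (0 and 2 without the block, 0 and 3 after quantile normalization), with a median of -0.11. When pair 1, 2 or 3 was left out, 0, 0 and 0 were higher, and 1, 2 and 2 lower. The higher calls were thus lost in each of these fits. Their count was near the share of all probe sets called higher, while the lower count lay above the share called lower. The lactate exporter gene Slc16a3 (-0.86, adjusted p = 0.00149), the glucose transporter gene Slc2a3 (-0.82, adjusted p = 0.00603) and the phosphofructokinase subunit gene Pfkl (-0.36, adjusted p = 0.0356, 0.207 unpaired) were lower. Aldoc, an aldolase, was one of the higher ones (0.37, adjusted p = 0.0395, 0.307 unpaired).

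Of 34 genes of DNA replication 24, and of 33 genes of mitosis 21, were higher in Gr1-negative cells, and none was lower. Mcm6, a subunit of the helicase that opens replication origins, read 7.14, 7.90 and 7.49 in the Gr1-positive and 8.47, 9.28 and 8.95 in the Gr1-negative arrays. Replicate 1 was lowest in each subset, the groups did not overlap, and the level was 2.62-fold that of Gr1-positive cells (1.39 ± 0.10, adjusted p = 5.06e-05). In the replication and G1/S list 10 genes did not pass. Its median was 0.60, with 16 higher without the block, against 9.17% and -0.0265 over all probe sets. All 34 differences were positive, 32 of them in all 3 pairs. Mcm7, another helicase subunit (1.14, adjusted p = 5.06e-05), Prim1, the catalytic primase subunit (1.25, adjusted p = 0.000326), and Pole, the leading-strand polymerase (1.04, adjusted p = 0.000140), were the next largest. The mean levels of Pole (5.91 in Gr1-positive and 6.95 in Gr1-negative cells) lay below the array medians.

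Of 33 mitosis and spindle genes 21 were higher and none lower, with a median of 0.52. The count was 8 without the block and 13 without pair 2. Ccna2, the cyclin of S phase and mitotic entry, read 6.74, 6.30 and 6.50 in the Gr1-positive and 8.00, 8.45 and 8.06 in the Gr1-negative arrays. The groups were more than 1 log2 unit apart (1.66 ± 0.24, adjusted p = 0.00117). Kif11, a motor that separates spindle poles, read 6.08, 6.17 and 5.86 in the Gr1-positive and 7.12, 7.79 and 7.24 in the Gr1-negative arrays (1.35 ± 0.13, adjusted p = 0.000163). Top2a, the topoisomerase that untangles chromosomes, differed by 1.34 (adjusted p = 7.37e-05), though a second Top2a probe set did not pass (0.06, adjusted p = 0.947). Ccnb2, a mitotic cyclin, differed by 1.00 (adjusted p = 0.00366, 0.0519 unpaired). In the mitosis list the Gr1-negative arrays had mean levels of 7.22 to 7.53 and the Gr1-positive arrays of 6.82 to 6.86.

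**Figure D3:**
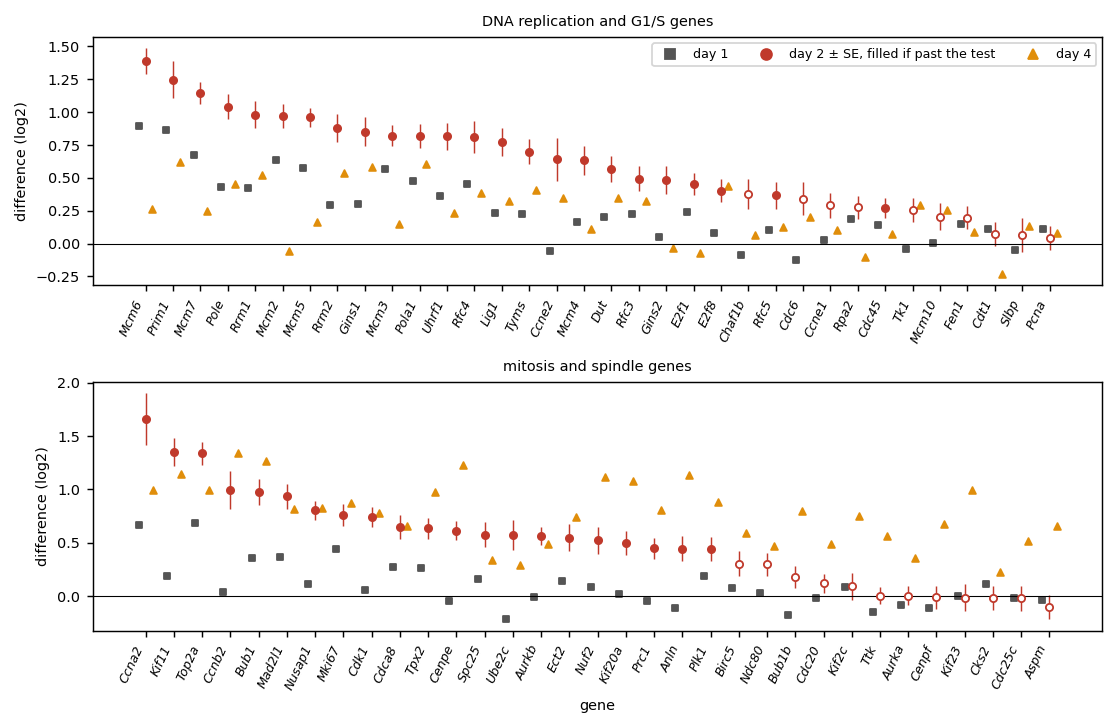
Subset difference (log2, Gr1-negative minus Gr1-positive) of each measured gene of the replication list (upper panel) and mitosis list (lower panel), ordered by the day 2 value; red circles are day 2 with SE, filled where the gene passed the test, grey squares day 1 and orange triangles day 4. At day 2 all 34 replication genes lie above 0, and 24 are filled. In the mitosis list 21 of 33 are filled.

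Promoter sequence was set beside these lists because known motifs exist for each. Sequences of the 250 bases before the annotated start come from RefSeq on GRCm38.p6, written 5′ to 3′ on the gene's strand, and 29 of 34 replication, 28 of 33 mitosis and 21 of 22 hypoxia genes had an entry. Motifs were searched on both strands, as E2F sites (TTTGGCGC, TTTCGCGC or TTTCCCGC), the cell cycle homology region (TTTGAA), the CCAAT box (CCAAT) and the hypoxia response core (ACGTG or GCGTG). An E2F motif was found in 6 of the 29 replication promoters (20.7%) and in 1.59% of 27025 promoters, against 3.57% of the mitosis and 0 of the 21 hypoxia promoters. The cell cycle homology region was found in 9 of 28 mitosis promoters (32.1%, against 16.3% of all), 13.8% of the replication and 9.52% of the hypoxia promoters. The CCAAT box was found in 21 of the mitosis promoters (75%, against 34.5% of all), 58.6% of the replication and 52.4% of the hypoxia promoters. The hypoxia core was found in 19 of 21 hypoxia promoters (90.5%, against 38.6% of all), 51.7% of the replication and 60.7% of the mitosis promoters. The CCAAT box and the hypoxia core were thus more frequent than among all promoters in each of the 3 lists. A match to these short words describes the sequence and is no measurement of binding.

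For each list the pair of genes with the largest difference and a sequence is shown. Capitals mark E2F words in Mcm6 (Prim1 holds none), the cell cycle homology region and CCAAT box in Kif11 and Top2a, and the hypoxia core in Egln3 and Ankrd37. The windows are chr1:128359706-128359955 on the minus strand (Mcm6), chr10:128014965-128015214 on the plus strand (Prim1), chr19:37376132-37376381 on the plus strand (Kif11), chr11:99024190-99024439 on the minus strand (Top2a), chr12:54203875-54204124 on the minus strand (Egln3) and chr8:45999851-46000100 on the minus strand (Ankrd37).
Mcm6: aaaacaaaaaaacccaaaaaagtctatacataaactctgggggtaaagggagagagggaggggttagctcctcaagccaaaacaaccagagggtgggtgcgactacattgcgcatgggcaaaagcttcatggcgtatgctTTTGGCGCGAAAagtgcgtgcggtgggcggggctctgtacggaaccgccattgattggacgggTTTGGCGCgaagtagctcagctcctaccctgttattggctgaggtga
Prim1: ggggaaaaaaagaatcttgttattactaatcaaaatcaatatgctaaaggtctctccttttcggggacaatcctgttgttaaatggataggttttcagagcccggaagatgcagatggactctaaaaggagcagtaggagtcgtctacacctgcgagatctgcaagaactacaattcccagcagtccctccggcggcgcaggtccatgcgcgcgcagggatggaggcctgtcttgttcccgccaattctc
Kif11: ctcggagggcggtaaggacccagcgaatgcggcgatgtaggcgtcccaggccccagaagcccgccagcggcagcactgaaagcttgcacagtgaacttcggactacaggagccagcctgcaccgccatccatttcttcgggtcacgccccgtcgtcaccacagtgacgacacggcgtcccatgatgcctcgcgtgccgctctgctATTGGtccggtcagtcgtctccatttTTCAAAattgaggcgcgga
Top2a: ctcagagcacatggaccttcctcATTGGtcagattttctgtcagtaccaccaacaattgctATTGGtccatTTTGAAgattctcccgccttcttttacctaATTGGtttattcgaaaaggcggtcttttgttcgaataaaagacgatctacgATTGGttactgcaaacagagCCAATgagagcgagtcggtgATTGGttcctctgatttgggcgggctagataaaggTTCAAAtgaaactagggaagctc
Egln3: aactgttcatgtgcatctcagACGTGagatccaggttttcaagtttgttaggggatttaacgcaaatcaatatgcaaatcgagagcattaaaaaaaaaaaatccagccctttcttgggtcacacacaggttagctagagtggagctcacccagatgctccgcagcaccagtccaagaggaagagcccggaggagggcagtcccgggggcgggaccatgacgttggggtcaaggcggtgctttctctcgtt
Ankrd37: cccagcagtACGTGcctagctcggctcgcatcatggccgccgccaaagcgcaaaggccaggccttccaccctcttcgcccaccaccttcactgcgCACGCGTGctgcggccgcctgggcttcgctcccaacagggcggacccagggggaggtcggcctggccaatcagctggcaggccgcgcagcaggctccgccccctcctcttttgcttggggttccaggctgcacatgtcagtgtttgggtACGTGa
Mcm6 holds 3 E2F words, the first starting 110 bases before the start and overlapping the second. Kif11 has the homology region 19 bases and a CCAAT box 45 bases before the start. Top2a has 2 homology regions and 6 CCAAT boxes, on either strand. Egln3 has 1 hypoxia core and Ankrd37 has 4, of which 2 overlap.

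Of 21 genes of fatty acid oxidation 11, and of 19 genes of lipid handling 8, were higher in Gr1-negative cells, and none was lower. The share higher among all probe sets was 9.17%. Mitochondria shorten fatty acids in repeated cycles of beta-oxidation, and macrophages that take up dying cells also export cholesterol. Hadh, a dehydrogenase of the cycle, read 9.97, 10.50 and 10.26 in the Gr1-positive and 10.88, 11.26 and 11.08 in the Gr1-negative arrays. The groups did not overlap (0.83 ± 0.09, adjusted p = 0.000226). Decr1, which handles unsaturated fatty acids (0.86, adjusted p = 0.000585), Acadm, the medium-chain dehydrogenase (0.57, adjusted p = 0.00132), and Eci2, an isomerase (0.41, adjusted p = 0.0495, 0.377 unpaired), were also higher. The oxidation list had a median of 0.32, and its count was 3 without the block and 3, 8 and 3 without pair 1, 2 or 3. The lipid-handling list had a median of 0.37, with 2 without the block and 5 and 4 without pair 2 or 3. Its higher genes include Lpl, which frees fatty acids from lipoproteins (1.02, adjusted p = 0.00996), the cholesterol exporters Abca1 (0.79, adjusted p = 0.00157, 0.0657 unpaired) and Abcg1 (0.58, adjusted p = 0.001), and Pltp, a phospholipid transfer protein (0.76, adjusted p = 0.000755, 0.181 unpaired).

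Cholesterol synthesis genes leaned the other way, with 4 of 17 lower, none higher and a median of -0.36. That count was 1 without the block, 0 without any one of the 3 pairs and 9 after quantile normalization. The 4 are Idi1 (-0.78, adjusted p = 0.037, 0.0647 unpaired), Cyp51 (-0.75, adjusted p = 0.0164) and Fdft1 (-0.58, adjusted p = 0.0406, 0.114 unpaired), enzymes of the pathway, and Stard4, a cholesterol carrier (-0.52, adjusted p = 0.038, 0.107 unpaired).

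The medians of the mitochondrial and lysosomal lists were 0.22 for ribosomal proteins, 0.18 for oxidative phosphorylation and 0.17 for lysosome and proton pump genes. Of 36 mitochondrial ribosomal protein genes 7 were higher, led by Mrpl13 (0.60, adjusted p = 0.00581, 0.0712 unpaired). None of them passed without the block, without pair 1 or without pair 3, 7 passed without pair 2, and 4 after quantile normalization. Of 30 oxidative phosphorylation genes 2 were higher, a share below the 9.17% of all probe sets. They are Cyc1, a subunit of the third respiratory complex (0.33, adjusted p = 0.0177, 0.18 unpaired), and Sdha, one of the second (0.31, adjusted p = 0.0272, 0.206 unpaired). Of the list 0 passed without the block and 0, 1 and 0 without pair 1, 2 or 3. Of 28 lysosome and proton pump genes 8 were higher, none without the block, and 4, 4 and 3 without pair 1, 2 or 3. Atp6v0d2, a proton pump subunit, led them (1.12, adjusted p = 0.00111, 0.111 unpaired), followed by the lysosomal hydrolases Glb1 (0.57, adjusted p = 0.00132, 0.114 unpaired) and Galc (0.55, adjusted p = 0.00527, 0.192 unpaired). Of 16 iron and heme genes 6 were higher (2 without the block, 3 without pair 2, and 1 lower after quantile normalization), among them Tfrc, the transferrin receptor (0.85, adjusted p = 0.000711), and Slc48a1, a heme transporter (0.47, adjusted p = 0.0054).

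Of 24 resident-type and efferocytic macrophage genes 10, and of 12 repair growth factor genes 9, were higher in Gr1-negative cells. Among all probe sets 9.17% were higher. Resident macrophages carry receptors that bind dying cells through bridging proteins, and macrophage growth factors act on muscle precursor cells. Cd5l, a secreted scavenger protein of tissue macrophages, read 6.09, 7.02 and 6.66 in the Gr1-positive and 7.14, 8.73 and 8.23 in the Gr1-negative arrays. Replicate 1 was lowest in both subsets and the groups did not overlap (1.44 ± 0.15, adjusted p = 0.000200, 2.72-fold). Gas6, which bridges dying cells to Mertk, read 8.51, 9.70 and 9.30 in the Gr1-positive and 9.91, 10.89 and 10.69 in the Gr1-negative arrays, also without overlap (1.33 ± 0.23, adjusted p = 0.003). None of the resident-type genes was lower, the list median was 0.46, and 5 were higher without the block. Timd4, a phosphatidylserine receptor, differed by 0.98 (adjusted p = 0.00247) and Slco2b1, an organic anion carrier, by 1.03 (adjusted p = 0.00398, 0.0914 unpaired).

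Igf1, a growth factor that promotes muscle growth, read 10.66, 10.25 and 10.06 in the Gr1-positive and 11.42, 11.33 and 11.31 in the Gr1-negative arrays. Every Gr1-negative array lay above every Gr1-positive one (1.03 ± 0.16, adjusted p = 0.00154, 0.0673 unpaired). The growth factor list had 1 lower gene and a median of 0.49, and without the block 1 gene was higher and 1 lower. The higher ones include Igfbp4, which binds insulin-like growth factors (0.96, adjusted p = 0.000622, 0.0757 unpaired), and the platelet-derived growth factor genes Pdgfc (0.93, adjusted p = 0.00803, 0.199 unpaired) and Pdgfb (0.64, adjusted p = 0.000585, 0.0663 unpaired). The lower one was Osm, the cytokine oncostatin M (-0.50, adjusted p = 0.00239), named after its value was seen because it was the exception.

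Complement and alternative activation genes had members on both sides. Of 15 complement genes 3 were higher and 2 lower (1 and 0 without the block, 1 higher without pair 1 and 5 after quantile normalization). Higher were Itgax, the integrin CD11c (0.88, adjusted p = 0.00474), and the C1q chains C1qa (0.82, adjusted p = 0.00655, 0.0562 unpaired) and C1qc (0.65, adjusted p = 0.00559, 0.114 unpaired), while Cfb, the protease of the alternative pathway, was lower (-0.76, adjusted p = 0.00108, 0.238 unpaired). Of 15 alternative activation genes 4 were higher and 1 lower (3 and 0 without the block, none lower without pair 3). Mgl2, a galactose-binding lectin also used as a dendritic cell marker, read 6.62, 7.12 and 7.13 in the Gr1-positive and 8.46, 8.51 and 8.50 in the Gr1-negative arrays, a gap of more than 1 log2 unit between the groups (1.53 ± 0.11, adjusted p = 5.06e-05). Its relative Clec10a (1.18, adjusted p = 0.000433) and the Notch ligand Jag1 (0.88, adjusted p = 0.00132) were higher, and the chemokine Ccl24 was lower (-0.84, adjusted p = 0.00663, 0.323 unpaired).

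Inflammatory mediators were mixed. Il6, the cytokine interleukin 6, read 8.56, 8.88 and 9.16 in the Gr1-positive and 7.35, 7.30 and 8.02 in the Gr1-negative arrays. The groups did not overlap and Gr1-negative cells were 2.49-fold lower (-1.32 ± 0.20, adjusted p = 0.00171). Il18, a cytokine of the interleukin 1 family, differed by -0.93 (adjusted p = 0.00105) and Inhba, which encodes an activin chain, by -0.63 (adjusted p = 0.00997, 0.537 unpaired). Ccl8, a chemokine, was higher by 1.32 (adjusted p = 0.0496, 0.205 unpaired). Of 27 cytokines and chemokines 3 were higher and 7 lower (1 and 2 without the block, 1 and 10 after quantile normalization). The higher count was near the 9.17% of all probe sets, of which 1.9% were lower. Without pair 1, 2 or 3 the higher count was 1 each time and the lower count 4, 2 and 3. The other 17 did not pass.

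Of 21 interferon-stimulated genes 8 were lower and 1 higher, with a median of -0.32. The lower count was 1 without the block, 4 without pair 2 or pair 3, and 15 after quantile normalization, and none was higher without the block, pair 1 or pair 3. Irf7, the transcription factor that amplifies interferon production, read 9.94, 11.28 and 11.33 in the Gr1-positive and 9.41, 10.34 and 10.73 in the Gr1-negative arrays. Replicate 1 stood about 1 log2 unit below the others in both subsets, so the groups overlapped although each Gr1-negative array lay below its partner (-0.69 ± 0.13, adjusted p = 0.00438, 0.342 unpaired). Oas2, a sensor of double-stranded RNA, did not overlap (-0.80 ± 0.09, adjusted p = 0.000269). Its relative Oas3 differed by -0.79 (adjusted p = 0.00219, 0.233 unpaired) and Rtp4 by -0.60 (adjusted p = 0.00205, 0.312 unpaired).

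Of 9 Ms4a membrane protein genes 5 were lower, with a median of -0.34 (1 without the block, 2 and 3 without pair 2 or 3, and 1 higher without pair 2). Ms4a8a led them (-1.32, adjusted p = 0.000212), ahead of Ms4a4c (-0.81, adjusted p = 0.00489, 0.104 unpaired). The costimulatory ligands Cd86 (-0.58, adjusted p = 0.00118) and Cd80 (-0.46, adjusted p = 0.0112, 0.127 unpaired), which activate T cells through CD28, were lower. Cd200, an inhibitory ligand (1.01, adjusted p = 0.000706, 0.0512 unpaired), and Tnfsf4, the OX40 ligand (0.89, adjusted p = 0.0151, 0.0733 unpaired), were higher. The mean levels of Tnfsf4 (5.66 in Gr1-positive and 6.55 in Gr1-negative cells) lay below the array medians. The other 9 of 13 did not pass. The counts of 2 higher and 2 lower were 0 and 1 without the block, 1 lower without any one pair, and 1 higher without pair 2 or pair 3. None of the 6 Fc receptor genes passed, with differences of -0.15 to 0 (-0.15 ± 0.09, adjusted p = 0.309 for Fcgr2b, the inhibitory receptor), and none of the 8 arginine and polyamine genes did, where Arg2, an arginase, had the widest difference (-0.24 ± 0.10, adjusted p = 0.175).

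**Figure D4:**
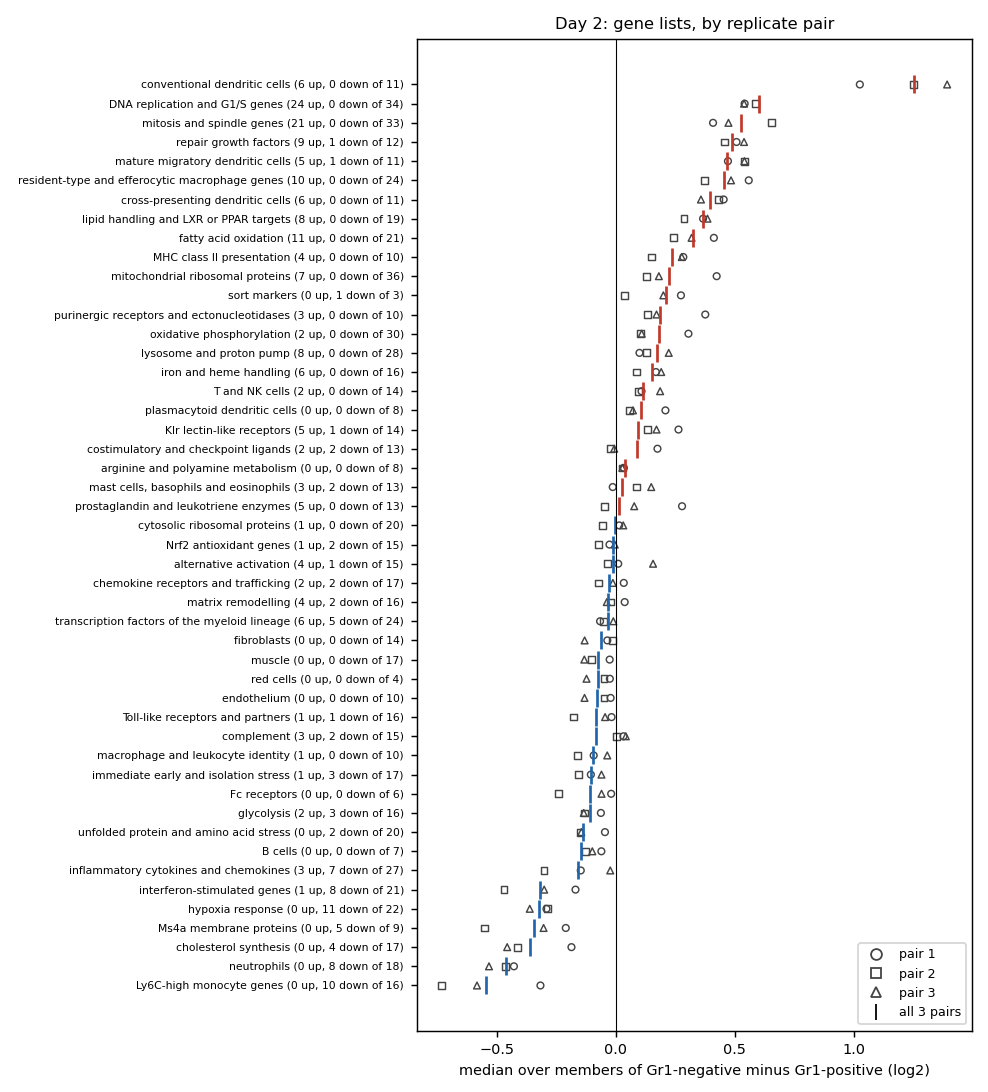
Median difference (log2, Gr1-negative minus Gr1-positive) over the measured members of each gene list at day 2, ordered by value; open symbols are the 3 replicate pairs and the coloured bar is the median over the fitted differences, with counts of members called in parentheses. The conventional dendritic cell list (1.25) lies farthest to the right in every pair, followed by the 2 cell cycle lists (0.60 and 0.52) over the 3 pairs together, and the Ly6C-high monocyte list (-0.54) lies farthest to the left. The lists were chosen with earlier results of these data known, so their order is no independent support.

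The day 2 difference was then set beside those of day 1 and day 4, which use other arrays. The calls of all days share one variance estimate per probe set, so the overlaps of calls below are not independent. At day 1, 570 probe sets (2.62%) were higher and 139 (0.638%) lower, and at day 4, 515 (2.36%) were higher and 166 (0.762%) lower. Of the probe sets higher at day 2, 93.7% had a positive difference at day 1 and 87.5% at day 4. Those lower at day 2 had a negative difference at day 1 in 88.6% and at day 4 in 77.8% of cases. The shares of these signs over all probe sets are not given here, so these percentages have no background beside them. The probe sets higher at both day 1 and day 2 numbered 412, which is 20.6% of the day 2 and 72.3% of the day 1 list. For day 4 they numbered 283, 14.2% of the day 2 and 55% of the day 4 list. Across probe sets, which are not independent, the day 2 difference had a Pearson r of 0.62 with day 1 and 0.54 with day 4.

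The change of the subset difference between days was tested as well. From day 1 to day 2 it passed in 8 probe sets (0.0367%), 6 upward and 2 downward, with 1778 at an unadjusted p under 0.05. It passed in 0 without the block, and in 13, 0 and 0 without pair 1, 2 or 3 of day 2. Adgre4, an adhesion receptor gene related to Adgre1, had the widest change. At day 2 it read 9.44, 9.72 and 9.81 in the Gr1-positive and 8.10, 7.64 and 8.09 in the Gr1-negative arrays, without overlap, and Gr1-negative cells were lower (-1.71 ± 0.17, adjusted p = 0.000200). Its difference had been 0.18 at day 1 (change -1.89 ± 0.24, adjusted p = 0.0395). Ace, the angiotensin-converting enzyme, differed by -1.14 at day 2 and 0.41 at day 1 (change -1.55 ± 0.21, adjusted p = 0.0395). Upward changes were those of Cmbl (0.39 at day 1 and 1.69 at day 2), Hnmt, which inactivates histamine (-0.48 and 0.68), and Lipn, a lipase-family gene (-0.01 and 1.09). At day 2 the mean levels of Hnmt (6.19 in Gr1-positive and 6.88 in Gr1-negative cells) and Lipn (5.82 and 6.91) lay below the array medians. Sort1, a sorting receptor (-0.21 and 0.78), and Mcoln3, a cation channel of endosomes (0.12 and 0.94), also changed upward.

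From day 2 to day 4 the difference changed in 173 probe sets (0.794%), 46 upward and 127 downward, with 2390 at an unadjusted p under 0.05. It did so in 2 without the block, and in 69, 22 and 2 without pair 1, 2 or 3 of day 2. Of the 127, 91 had been called higher at day 2, and of the 46, 23 had been lower. The day 2 values enter the call and, with reversed sign, the change, so selection by itself favours this pattern. Both tests of change share the day 2 arrays, so a gene in both is not 2 independent results. Cd209d (1.61 at day 2 and -1.34 at day 4, change -2.95 ± 0.45, adjusted p = 0.0156) and Nkg7 (0.87 and -1.59) changed downward. Ccr9, a homing receptor of plasmacytoid dendritic cells and T cells (-0.11 and -2.07), Cd3g (0.35 and -1.53) and Atp1b1, a sodium pump subunit (-0.19 and -2.27), did so too, none of the 3 having passed at day 2. Of the 14 T and NK cell genes 8 changed. Upward changes were led by Il6 (-1.32 and 0.91, change 2.22 ± 0.29, adjusted p = 0.0106), Gpr141b, an orphan receptor (0.79 and 2.76), the matrix protease gene Mmp9 (-0.53 and 1.30), Adgre4 (-1.71 and 0.11), and the fibroblast matrix gene Postn (-0.13 and 1.67).

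**Figure D5:**
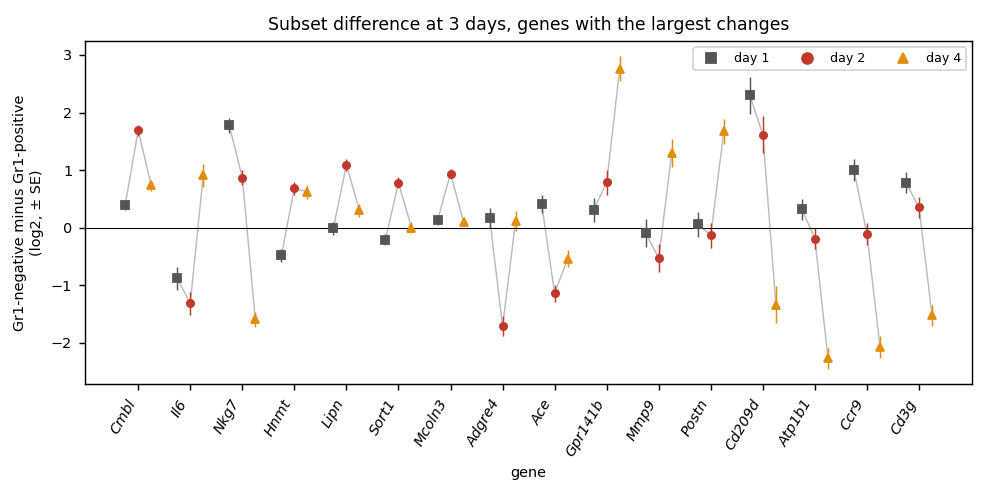
Subset difference (Gr1-negative minus Gr1-positive, log2 ± SE) on 3 days, 1, 2 and 4, for the genes with the largest changes between days, 3 pairs per point. Adgre4 and Ace lie below 0 at day 2 and above 0 at day 1, and Cd209d lies above 0 at days 1 and 2 and below 0 at day 4.

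The cell cycle and hypoxia lists were set beside their values of the other days, and no gene of the 3 lists passed the test of change from day 1 to day 2. Replication genes had a median of 0.21 at day 1 with 8 of 34 higher, and of 0.24 at day 4 with 8 higher. Mitosis genes had 0.06 with 2 of 33 higher at day 1 and 0.79 with 29 higher at day 4. The test of change from day 2 to day 4 passed in 5 replication and 2 mitosis genes, among them Mcm6 (-1.12 ± 0.14, adjusted p = 0.0105) and Mcm7 (-0.89 ± 0.12, adjusted p = 0.0106). The hypoxia list had a median of -0.15 with 3 lower at day 1 and of 0.01 with 2 lower at day 4, and 3 of its genes changed from day 2 to day 4.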

How the data were processed

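RNA of sorted CD45+ leukocytes was measured on 22 Affymetrix arrays (8 groups of day and subset). The deposited table holds log2 signal per probe set, summarized with RMA per the submitters' processing notes, version not given in the sources used here, and raw array files were not used. RMA scales arrays to each other, although the day 2 medians still differed slightly, so a shift common to all genes may not show, and it compresses low and high signals. The number of arrays limits the precision. All 22 columns matched a label, and no array copied another (the closest pair differed by 0.233, root mean square).

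Of 35556 probe sets, 23410 carry a gene in the platform's annotation. Those naming several genes (1621) were left out, and 21789 were kept, of which 21698 matched the RefSeq gene table (GRCm38.p6) by Entrez number. Named genes use the probe set with the highest mean over all arrays. With limma 3.58.1 (statmod 1.5.0, R 4.3.3) a linear model with a fixed term per pair (day and replicate number) and a subset effect within each day was fitted to all 22 arrays, with 6 residual degrees of freedom, and variances were moderated. P-values were adjusted by Benjamini-Hochberg over 21789 probe sets for each of 5 comparisons (days 1, 2 and 4 and the changes between them). The pairing was set by replicate number. At day 2, deviations from the group means of same-numbered arrays correlated at 0.638, 0.382 and 0.476 for replicates 1, 2 and 3. The Gr1-positive array of replicate 2 correlated slightly better with Gr1-negative replicate 3 (0.409). Gr1-positive replicate 3 correlated at 0.297 with Gr1-negative replicate 2. As these values lie close together, they cannot decide how replicates 2 and 3 match. At day 1 one of the pairs had a correlation of 0.0833. The procedure was tested on simulated data.

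The comparison and the 48 gene lists (781 of 844 members measured) were chosen with earlier results of these data known. The text names the sort markers, the 12 largest called differences per direction with one sign in all 3 pairs, up to 4 such genes per list (the widest difference where none passed) and the 5 largest changes per direction between days. List medians and counts carry no test. Alternatives were the fit without pairs or with the pairs as a random effect, day 2 arrays alone, 1 probe set per gene, brighter probe sets, renewed quantile normalization, another variance prior, array weights and each pair left out. Figures used matplotlib 3.10.9 in Python 3.11.15.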

Additional observations from a re-analysis of the deposited data

Results flagged for a closer look

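These genes, among those named, had a subset gap (log2, Gr1-negative less Gr1-positive) that differed between days by the test of the change. The day 2 arrays enter every such test, so the changes are not independent of each other or of the day 2 calls.

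From day 1 to day 2 the difference changed by 1.30 in Cmbl, 1.17 in Hnmt, 1.10 in Lipn, 0.99 in Sort1 and 0.81 in Mcoln3. It changed by -1.89 in Adgre4 and by -1.55 in Ace.

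From day 2 to day 4 it changed upward in genes that were lower in Gr1-negative cells at day 2. The values were 2.22 in Il6, 1.82 in Adgre4, 1.25 in Itgal, 1.01 in Serpinb2, 1.00 in Ak4, 0.97 in Il18, 0.82 in Cd80, 0.72 in Ero1a and 0.68 in Cd86. Upward changes were also seen in Gpr141b (1.97) and Xcr1 (1.69), which were higher at day 2 already, and in Mmp9 (1.83) and Postn (1.81), which did not pass at day 2.

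Downward changes from day 2 to day 4 in genes of dendritic and lymphoid cells were -2.95 in Cd209d, -1.65 in Cd209a, -2.46 in Nkg7, -1.81 in Gzmb, -1.96 in Ccr9 and -1.88 in Cd3g. Atp1b1 changed by -2.07. Replication and trafficking genes changed by -1.12 (Mcm6), -0.89 (Mcm7) and -1.29 (S1pr1, the lymphocyte egress receptor). Macrophage and lipid genes changed by -1.13 (Cd5l), -1.08 (Bhlhe41, a circadian repressor), -0.78 (Hpgds, a prostaglandin D synthase), -0.73 (Pltp), -0.64 (Abcg1), -0.63 (Hadh) and -0.59 (Gaa, the lysosomal glucosidase). Of the 5 named genes whose difference had changed upward from day 1, 4 changed downward, by -0.95 (Cmbl), -0.83 (Mcoln3), -0.79 (Lipn) and -0.78 (Sort1). That of Hnmt (-0.06) did not pass.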

How the results depend on the processing

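The replicate block decided much of the count. With the pairing, 1998 probe sets were higher and 414 lower at day 2, and with no replicate block 548 and 132. The change from day 1 to day 2 went from 8 to 0 probe sets and that from day 2 to day 4 from 173 to 2. With a random block the changes passed in 2 and 37. Array weights gave 3084 higher, 1281 lower, and 105 and 899 changed. Quantile normalization gave 785 lower. Trend and robust moderation gave 33 and 285 changed, brighter probe sets 15 and 286, and 1 probe set per gene 18 from day 1 to day 2. Leaving out a pair of day 2 gave 782 to 1257 higher, 146 to 356 lower, 0 to 13 changed from day 1 to day 2 and 2 to 69 from day 2 to day 4, with fewer arrays in each such fit. The cause of the other shifts was not tested. All other counts stayed within 1.5-fold. Of the 170 named probe sets none reversed under the 11 alternatives, of which that of brighter probe sets held 151 of them. The call was lost in 79 without the block, in 31 with a random block, in 11 after quantile normalization, in 9 with trend and robust moderation, in 7 with day 2 arrays only and in 37, 33 and 47 without pair 1, 2 or 3. The number of arrays limits small differences: probe sets below the array medians of about 7 lie nearer to background.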

Other observations

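Of 24 transcription factor genes of the myeloid lineage 6 were higher and 5 lower (0 and 1 without the block, 1 and 6 after quantile normalization). Without pair 1, 2 or 3 the higher count was 2 each time and the lower count 3, 1 and 1. Bhlhe41 (0.91, adjusted p = 0.001, 0.227 unpaired) and Irf4, a regulator of dendritic cells and alternative activation (0.78, adjusted p = 0.029, 0.0561 unpaired), were higher, and Id3, an inhibitor of helix-loop-helix factors (-0.64, adjusted p = 0.0144, 0.0756 unpaired), was lower. Of 13 prostaglandin and leukotriene enzymes 5 were higher, 2 of them without the block and 3 without any one of the 3 pairs (1 was lower after quantile normalization). They were led by Hpgds (1.06, adjusted p = 0.000163, 0.178 unpaired) and the lipoxygenase Alox5 (0.88, adjusted p = 0.00324). Of 16 matrix remodelling genes 4 were higher, among them the proteases Mmp13 (0.82, adjusted p = 0.000946, 0.177 unpaired) and Mmp12 (0.82, adjusted p = 0.0021, 0.255 unpaired), and 2 lower, among them the protease inhibitor Serpinb2 (-0.99, adjusted p = 0.000410, 0.416 unpaired). The matrix counts were 1 higher and 0 lower without the block, 2 higher without pair 3, and 1 lower without any one pair. Of 10 purinergic receptor and ectonucleotidase genes 3 were higher, and 1 without the block or any one pair. The 3 are P2ry10, P2ry14, a receptor for UDP-glucose (0.61, adjusted p = 0.0305, 0.208 unpaired), and P2rx4, an ATP-gated channel (0.30, adjusted p = 0.0284, 0.134 unpaired). P2ry10, the 1 that passed without the block, is listed here by its name although it is a lysophospholipid receptor.

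Of 17 chemokine receptor and trafficking genes 2 were higher and 2 lower (1 and 1 without the block, 1 lower without pair 2). The higher count was near the 9.17% of all probe sets. S1pr1 (1.26, adjusted p = 0.000225) and the integrin chain Itga6 (1.00, adjusted p = 0.00246, 0.111 unpaired) were higher. Itgal, the integrin chain of LFA-1, read 10.28, 10.57 and 10.65 in the Gr1-positive and 9.09, 8.80 and 9.02 in the Gr1-negative arrays and was lower without overlap (-1.53 ± 0.15, adjusted p = 0.000174), as was the chemokine receptor gene Ccr1 (-0.57, adjusted p = 0.0067, 0.271 unpaired). Immediate early and isolation stress genes had 1 higher and 3 lower of 17, with Fosb (0.49, adjusted p = 0.01, 0.0784 unpaired) against Ier2 (-0.72, adjusted p = 0.00154). These counts were 0 and 1 without the block, and 0 and 1 without pair 3. Of 20 stress response genes of amino acid shortage and unfolded protein 2 were lower, Sesn2 (-0.51, adjusted p = 0.0135, 0.0553 unpaired) and Ddit3 (-0.48, adjusted p = 0.00582, 0.0788 unpaired). The lower count was 0 without the block, 1 without any one pair and 4 after quantile normalization, and 1 gene was higher without pair 2. Of 15 Nrf2 antioxidant genes 1 was higher, Cat (0.41, adjusted p = 0.0103, 0.174 unpaired), and 2 lower, Slc7a11 (-0.60, adjusted p = 0.0136, 0.409 unpaired) and Gsr (-0.60, adjusted p = 0.00962, 0.126 unpaired). None of these 15 passed without the block, the higher call was lost without pair 1 or 3, and the lower count was 1, 0 and 1 without pair 1, 2 or 3. Of 16 Toll-like receptor genes Tlr9 was lower (-0.60, adjusted p = 0.0051) and Cd180 higher (0.37, adjusted p = 0.0164, 0.306 unpaired, lost without pair 1 or 3), with 3 lower after quantile normalization. Of 20 cytosolic ribosomal protein genes Rpl14 was higher (0.38, adjusted p = 0.0498, 0.3 unpaired), a call lost without any one pair and after quantile normalization. In the immediate early, Nrf2, Toll-like receptor and ribosomal lists the share higher lay below the 9.17% of all probe sets.

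Pair 1 had the smallest absolute difference of the 3 pairs in 236 of the 414 probe sets called lower. Its median over the lower probe sets was -0.44, against -0.55 and -0.50 in pairs 2 and 3, and over the higher ones 0.53 against 0.40 and 0.46.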
